A study of Mus musculus with 5 samples.

Results

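The 10 genes described here are linked to Cajal-Retzius cells and were followed in medial and lateral cortical tissue of mouse embryos at E14.5, during cortical neurogenesis. They were taken by symbol from a fixed list: the secreted protein Reln, the transcription factors Trp73, Ebf1, Ebf2, Ebf3 and Nhlh2, the calcium handling genes Cacna2d2 and Calb2, and the chemokine receptor and ligand pair Cxcr4 and Cxcl12. All 10 were among the 34590 gene symbols counted, and all 10 had enough reads to be tested. Both groups were wildtype embryos of a mixed strain background that received no treatment, with 3 libraries of dissected medial cortex and 2 of dissected lateral cortex. RNA was sequenced from polyadenylated transcripts without keeping the strand. The labels do not say how many embryos gave each sample or whether replicates shared an embryo, so the p-values rest on a spread between libraries that may be technical. Tissue was sequenced in bulk, so more cells of a type and more RNA per cell cannot be told apart.

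Cajal-Retzius cells are early-born neurons that spread under the pial surface of the cortex, in the marginal zone. They arise at the edges of the cortical sheet, chiefly at the cortical hem along the medial edge, and also in the septum and in the ventral pallium on the lateral side. They secrete reelin, a large matrix protein that binds the receptors Vldlr and Lrp8 on migrating neurons, acts through the adaptor Dab1 and is needed for the layering of the cortex. The p53 relative p73 (Trp73) marks and maintains many of them, chiefly those from the hem and the septum. Cxcl12, secreted by the meninges and by some cells within the cortex, holds Cajal-Retzius cells at the surface through its receptor Cxcr4.

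The libraries held between 27406370 and 36460274 gene reads in medial and between 56147129 and 66981952 in lateral cortex, so depth differed with region. Levels are given as CPM, read counts scaled to library size with TMM (the trimmed mean of M values). By library size alone, before TMM, 3 reads are worth 0.0448 CPM in the deepest and 0.109 CPM in the shallowest library. The tissue label was checked on Emx1 and Pax6, factors of the embryonic cortex. Emx1 stood between 68.4 and 116 CPM and Pax6 between 153 and 224 CPM over the 5 libraries, so both were present in every library. Medial library 1 stood apart: 13 listed genes of the cortical hem summed to 430 CPM there, against 150 and 175 CPM in the other medial libraries. Its 13 listed genes of the meninges, the membranes over the brain, summed to 309 CPM against at most 37.0 CPM in any other library. Several results that this library moved are given with and without it.

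The sequence before the start is shown for the 4 genes in which it held a match to one of 3 short motifs, Reln, Trp73, Ebf3 and Cxcl12, chosen after the matches were seen. Nhlh2, Cacna2d2, Ebf1 and Cxcr4 held no match. Each is the stretch of 250 bases before an annotated start in RefSeq (build GRCm38.p6), written 5′ to 3′ on the gene's strand. RefSeq promoters matched 8 of the 10 genes, all but Calb2 and Ebf2. Trp73 has an upstream start, used for the full-length forms, and an internal start, used for the form without the transactivation domain. The counts sum both. Capitals mark the core of the EBF motif (CCCNNGGG), an E-box (CAGCTG) of the kind bound by basic helix-loop-helix factors, or a TCF/LEF motif (CTTTGAT), each searched on both strands.
Reln, EBF core, chr5:22344706-22344955, minus strand: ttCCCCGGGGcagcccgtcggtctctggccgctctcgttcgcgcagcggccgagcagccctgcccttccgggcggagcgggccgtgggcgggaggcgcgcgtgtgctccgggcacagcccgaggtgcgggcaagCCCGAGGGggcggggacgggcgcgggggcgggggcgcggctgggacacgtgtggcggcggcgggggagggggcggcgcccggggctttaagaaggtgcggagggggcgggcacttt
Trp73, upstream start, E-box, chr4:154139876-154140125, minus strand: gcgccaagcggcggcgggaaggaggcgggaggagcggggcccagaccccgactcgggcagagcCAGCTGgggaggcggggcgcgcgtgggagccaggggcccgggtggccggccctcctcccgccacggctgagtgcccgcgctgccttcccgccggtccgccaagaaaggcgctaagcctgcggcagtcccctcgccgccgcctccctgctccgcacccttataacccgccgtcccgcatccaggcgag
Trp73, internal start, no match, chr4:154097174-154097423, minus strand: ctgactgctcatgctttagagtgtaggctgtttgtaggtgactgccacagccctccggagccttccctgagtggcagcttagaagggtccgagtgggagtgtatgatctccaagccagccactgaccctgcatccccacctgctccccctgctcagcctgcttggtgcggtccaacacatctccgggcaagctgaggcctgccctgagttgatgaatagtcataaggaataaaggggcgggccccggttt
Ebf3, EBF core, chr7:137314446-137314695, minus strand: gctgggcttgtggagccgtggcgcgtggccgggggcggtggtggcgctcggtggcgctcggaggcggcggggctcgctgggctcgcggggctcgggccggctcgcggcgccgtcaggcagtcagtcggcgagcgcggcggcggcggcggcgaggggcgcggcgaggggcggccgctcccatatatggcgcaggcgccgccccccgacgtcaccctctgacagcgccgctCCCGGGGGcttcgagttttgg
Cxcl12, TCF/LEF motif, chr6:117168285-117168534, plus strand: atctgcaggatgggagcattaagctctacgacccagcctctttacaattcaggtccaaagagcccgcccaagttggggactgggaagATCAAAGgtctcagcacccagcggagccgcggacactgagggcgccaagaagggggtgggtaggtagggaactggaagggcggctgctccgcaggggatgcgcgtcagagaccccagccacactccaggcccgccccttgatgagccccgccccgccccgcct
Of the 10 promoters of these genes in the table, 2 held the EBF core, against 11.8% of all 32851 promoters. The E-box was in 1 of 10 against 13.0% and the TCF/LEF motif in 1 of 10 against 3.21%. The full EBF motif, which adds a T before and an A after the core, was in 0 of 10 against 0.779%. With 10 promoters these counts are a description of the letters in these windows.

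Of the 10 genes, 7 were higher and 1, Cxcl12, was lower in medial cortex at an adjusted p of 0.05 (edgeR's quasi-likelihood test, Benjamini-Hochberg adjustment over 16229 genes). Among all genes tested 9.72% passed, 4.62% higher and 5.1% lower. The median log2 fold change, medial over lateral, was 1.62 over the 10 genes and 0.01 over all genes tested. In 9 of the 10 every medial library lay above every lateral one, as in 26.5% of all genes, and in Cxcl12 every lateral library lay above, as in 26.7%. Groups did not overlap in either direction in 53.3% of all genes tested. Ebf1 and Cxcr4 did not pass. Without medial library 1, 9 of the 10 passed, 8 higher and 1 lower, while 2164 of all 16392 genes tested passed. Without medial library 2, lateral library 1 or lateral library 2, edgeR called 0 of them, with 10, 8 and 9 at an unadjusted p under 0.05. In the same fits 0, 18 and 0 of all genes passed, so these calls rest on having all of those libraries. The same holds for the calls of other genes given below, except those of Bmp7 and Emx2 without lateral library 1. Without medial library 3, 7 of the 10 passed, with Ebf2 lost (adjusted p = 0.0530 in edgeR), while 490 of all 16275 genes tested passed. Of the other genes below, Tbr1, Nde1, Cdh5, Fgf18, Plekhh2, Zfp521, Emx2 and Lhx2 lost their calls without medial library 3 too. Fgf18 and Drd1a lost theirs without medial library 1.

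**Figure D1:**
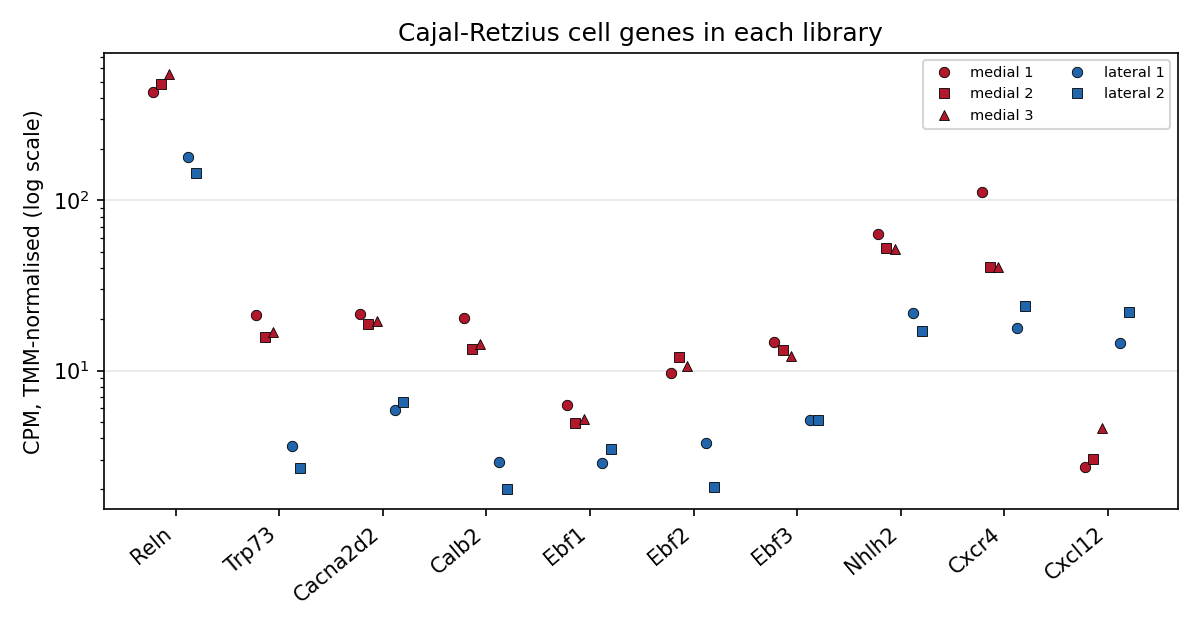
Level of each of the 10 genes in each library, in TMM-normalised CPM on a log axis, with medial libraries in red and lateral libraries in blue. In 9 genes all red points lie above all blue points, in Cxcl12 all lie below, and the Cxcr4 point of medial library 1 (113 CPM) lies far above the other medial points (40.7 CPM in each).

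Reln, the gene of the secreted signal itself, had 12533, 13816 and 19987 reads in medial libraries 1 to 3 and 11908 and 7786 reads in the deeper lateral libraries 1 and 2. These counts correspond to 435, 483 and 556 CPM in medial and to 181 and 145 CPM in lateral cortex. The lowest medial library was thus well above the highest lateral one. The log2 fold change was 1.59 (SE 0.15, adjusted p = 0.0253 in edgeR), or 3.02-fold. Medial library 1, rich in hem genes, had the lowest medial level of Reln.

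Trp73 had 21.2, 15.8 and 16.9 CPM in the medial and 3.62 and 2.69 CPM in the lateral libraries. The groups were far apart, and medial library 1 was the highest. The log2 fold change was 2.50 (SE 0.22, adjusted p = 0.0231 in edgeR), or 5.66-fold, from 145 to 610 reads a library. Nhlh2, a basic helix-loop-helix factor of young neurons, had 63.3, 52.7 and 51.7 CPM in medial and 21.9 and 17.0 CPM in lateral cortex. Its groups did not overlap either, and its log2 fold change of 1.52 (SE 0.16, adjusted p = 0.0253 in edgeR) was close in size to that of Reln.

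Ebf1, Ebf2 and Ebf3 encode EBF factors (early B-cell factors), which act in the differentiation of several kinds of neurons. Their estimated log2 fold changes ran from 0.80 to 1.88. Ebf2 had 9.68, 12.1 and 10.6 CPM in the medial and 3.74 and 2.06 CPM in the lateral libraries, and its log2 fold change was 1.88 (SE 0.28, adjusted p = 0.0305 in edgeR). Ebf3 had 14.8, 13.3 and 12.1 CPM against 5.15 and 5.13 CPM, with a log2 difference of 1.38 (SE 0.15, adjusted p = 0.0255 in edgeR). Both were higher in every medial library, and lateral library 2 held the lowest Ebf2. Ebf1 had 6.31, 4.93 and 5.20 CPM in medial against 2.84 and 3.45 CPM in lateral cortex. Its libraries did not overlap either, but the log2 fold change of 0.80 (SE 0.20, adjusted p = 0.0566 in edgeR) missed the threshold. Whether the change of Ebf1 differs from that of Ebf2 or Ebf3 was not tested. The 3 genes shared no stretch of 50 bases with transcripts of any other gene in GENCODE M21, so reads of that length or longer can be told apart between them.

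Both calcium handling genes were higher in medial cortex. Calb2, which encodes the calcium-binding protein calretinin, had 20.3, 13.5 and 14.2 CPM in medial and 2.92 and 2.02 CPM in lateral libraries. Its log2 fold change of 2.68 (SE 0.28, adjusted p = 0.0253 in edgeR), or 6.43-fold, was the largest upward change of the 10 genes. Calretinin also marks other neurons, among them a class of interneurons. Cacna2d2, an auxiliary subunit of voltage-gated calcium channels, had 21.6, 18.7 and 19.6 CPM against 5.90 and 6.57 CPM. The spread within each group was small beside the gap, and the log2 fold change was 1.68 (SE 0.13, adjusted p = 0.0214 in edgeR).

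The chemokine pair went opposite ways. Cxcl12, the ligand, had 2.71, 3.01 and 4.59 CPM in the medial and 14.52 and 22.16 CPM in the lateral libraries, from 78 to 165 medial and 955 and 1193 lateral reads. No medial library came near a lateral one. The log2 fold change was −2.40 (SE 0.29, adjusted p = 0.0272 in edgeR), which makes the lateral level 5.28-fold higher. Cxcr4, the receptor, had 113, 40.7 and 40.7 CPM in medial and 17.7 and 23.8 CPM in lateral cortex. Medial library 1 stood far above the rest, and the log2 fold change of 1.64 (SE 0.51, adjusted p = 0.0892 in edgeR) did not pass. Without that library it was 0.97 (SE 0.15) and passed at an adjusted p = 0.0237 in edgeR, within a range from 2.53e-05 to 0.341 over all alternatives. Cxcr7, the scavenger receptor for the same ligand now named Ackr3, had 14.1, 17.2 and 23.6 CPM against 29.3 and 28.4 CPM, a log2 fold change of −0.65 (adjusted p = 0.0987 in edgeR).

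Markers of cells that can express Cxcl12 or Cxcr4 differed between libraries too. The meningeal sum was 309, 31.1 and 37.0 CPM in medial and 21 and 26.4 CPM in lateral libraries, and 0 of its 8 tested genes passed. Medial library 1 had 97.2 CPM of the collagen gene Col1a1 and 2.71 CPM of Cxcl12, close to the 3.01 CPM of Cxcl12 in medial library 2. Other than in medial library 1 Col1a1 did not exceed 4.62 CPM. The defining meningeal factor Foxc1 had between 2.48 and 4.06 CPM in all 5 libraries (log2 fold change −0.10). It was the exception, since 7 of the 8 tested meningeal genes had a positive log2 fold change, with a median of 2.38 over the 8. In 2 of the 8 every medial library lay above every lateral one, as in 26.5% of all genes tested. Aldh1a2, another meningeal gene, was at 0 reads in medial library 2. The 8 endothelial genes summed to between 93.7 and 108 CPM in medial and between 124 and 140 CPM in lateral libraries, with 1, Cdh5, lower in medial cortex (log2 fold change −0.58, adjusted p = 0.0368 in edgeR). The 5 pericyte genes summed to between 46.4 and 59.0 CPM against between 62.5 and 88.4 CPM, with 0 of 5 past the threshold. The 10 genes of GABAergic interneurons, which carry Cxcr4 and follow Cxcl12, summed to between 5.7 and 24.4 CPM in medial and between 86.0 and 128 CPM in lateral libraries, with 7 of 10 lower in medial cortex. The 6 microglial genes summed to 52.0 CPM in medial library 1 and to between 19.4 and 28.6 CPM elsewhere, with 0 of 6 past the threshold. The part of these cells in the Cxcl12 and Cxcr4 differences was not tested.

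**Figure D2:**
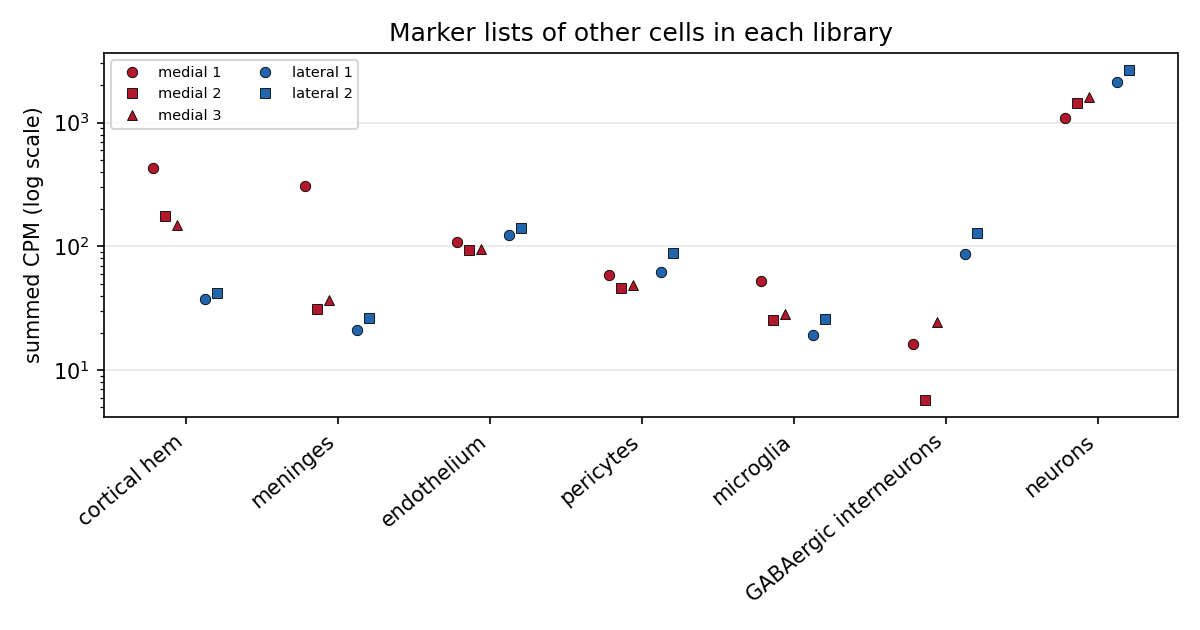
Summed level of marker lists of other cells in each library, in CPM on a log axis, with medial libraries in red and lateral libraries in blue. Hem markers are higher in all 3 medial libraries, the meningeal sum is high in medial library 1 alone (309 CPM), and interneuron and neuron markers are higher in both lateral libraries.

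The 9 other genes were set against Reln within each library, as raw reads per 100 Reln reads, which needs no scaling between libraries. Trp73 came to 4.87, 3.27 and 3.04 in medial and 2.00 and 1.86 in lateral libraries, and Calb2 to 4.68, 2.79 and 2.56 against 1.61 and 1.40. Both were therefore higher relative to Reln in every medial library. Ebf1 came to between 0.936 and 1.45 in medial and between 1.57 and 2.39 in lateral libraries, and Cxcl12 to between 0.622 and 0.826 against between 8.02 and 15.3. These 2 were lower relative to Reln in every medial library. For Cacna2d2, Ebf2, Ebf3, Nhlh2 and Cxcr4 the medial and lateral ratios overlapped. Nhlh2, for example, came to between 9.31 and 14.6 reads in medial and between 11.8 and 12.1 in lateral libraries. A two-sided exact permutation test over the 5 libraries gave p = 0.2 for each of the 4 genes without overlap, which is the smallest p that 10 arrangements allow, and between 0.4 and 1.0 for the other 5. None of these ratios can therefore pass a threshold of 0.05. The share of all genes whose ratio to Reln separates the groups was not counted, so the 4 have no background. In CPM the groups did not overlap in 53.3% of all genes tested.

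**Figure D3:**
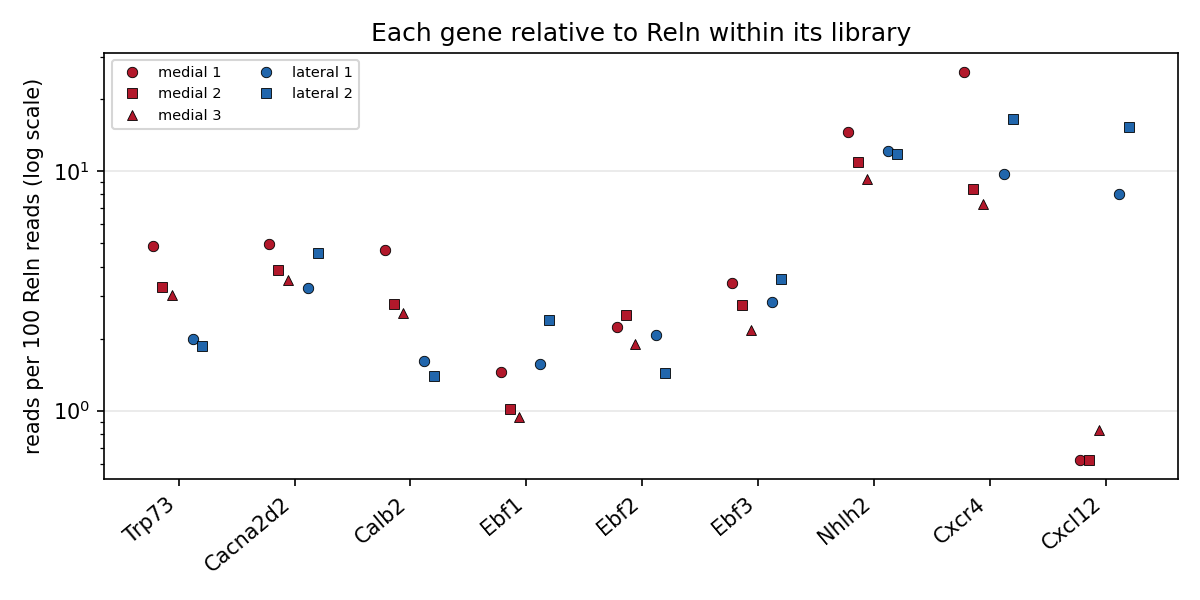
Reads of each gene per 100 Reln reads in the same library, on a log axis, with medial libraries in red and lateral libraries in blue. Trp73 and Calb2 lie higher and Ebf1 and Cxcl12 lower in all medial libraries, and the colours mix for the other 5 genes.

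Levels were compared between genes per length, as RPKM, which is the CPM divided by the exon length in kilobases, with exon lengths from GENCODE M21. In medial cortex Reln was first with 42.0 RPKM ± 5.21 (SD, n = 3), followed by Cxcr4 with 35.9 ± 23.1 (SD, n = 3). These 2 overlapped, since Cxcr4 ranged from 22.5 to 62.5 RPKM. Nhlh2 (10.3) and Calb2 (9.19) also overlapped, as did Cacna2d2 (3.43) and Trp73 (3.37). Ebf3 (2.53), Ebf2 (1.90), Ebf1 (0.916) and Cxcl12 (0.480) followed in that order, each range of libraries below that of the gene before it. In lateral cortex Reln (13.9 RPKM) and Cxcr4 (11.5) were again first and overlapped, Nhlh2 (3.59) came next, and Cxcl12 was the next after it with 2.56 RPKM ± 0.754 (SD, n = 2). Calb2 (1.42), Cacna2d2 (1.07) and Ebf3 (0.971) followed without overlap. Trp73 (0.593), Ebf1 (0.526) and Ebf2 (0.511) came last and overlapped with each other.

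Since the strand was not kept, reads of a gene on the opposite strand could add to or be taken from a count where exons overlap. In GENCODE M21, noncoding genes overlap the exons of 5 of the 10 genes, all on the opposite strand. The overlap spans 246 of 11699 exon bases for Reln (Gm10475), 280 of 5322 for Trp73 (Trp73os), 82 of 5831 for Cacna2d2 (Gm17141), 424 of 5680 for Ebf2 (Gm10860) and 355 of 5295 for Ebf3 (Gm45278). Calb2, Ebf1, Nhlh2, Cxcr4 and Cxcl12 have none. Stretches of 50 bases shared with transcripts of other genes made up at most 0.151% of those of any of the 10 genes, in Reln.

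Among 7 other genes of Cajal-Retzius cells found in the counts, Lhx1, Lhx5 and Rcan2 were higher and Tbr1 was lower in medial cortex. The 7 genes, Tbr1 included, summed to between 144 and 191 CPM in medial and between 250 and 312 CPM in lateral libraries. The LIM-homeobox factor Lhx1 had 2.50, 2.66 and 2.25 CPM against 0.274 and 0.334 CPM, a log2 fold change of 3.02 (adjusted p = 0.0231 in edgeR). Its relative Lhx5 had 5.52, 4.16 and 4.87 CPM against 1.16 and 1.17 CPM, one of 2.06 (adjusted p = 0.0255 in edgeR). Both stood higher in every medial library, like Reln. Rcan2, a regulator of calcineurin, had 50.2, 29.3 and 25.1 CPM against 6.04 and 5.37 CPM, a log2 fold change of 2.61 (adjusted p = 0.0296 in edgeR). Tbr1, which Cajal-Retzius cells share with deep-layer neurons, had 56.0, 94.6 and 122 CPM against 206 and 279 CPM and a log2 fold change of −1.41 (adjusted p = 0.0480 in edgeR). Nhlh1, the close relative of Nhlh2, had between 29.0 and 34.4 CPM in medial and 36.2 and 25.0 CPM in lateral cortex, so its libraries overlapped (log2 fold change 0.09, adjusted p = 0.759 in edgeR). Barhl2 (1.5, adjusted p = 0.0711) and Car10 (−0.46, adjusted p = 0.675) did not pass in edgeR. Without lateral library 1 Barhl2 was at 0.98 and Car10 at −1.17, and without medial library 2 Car10 was at −0.27.

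**Figure D4:**
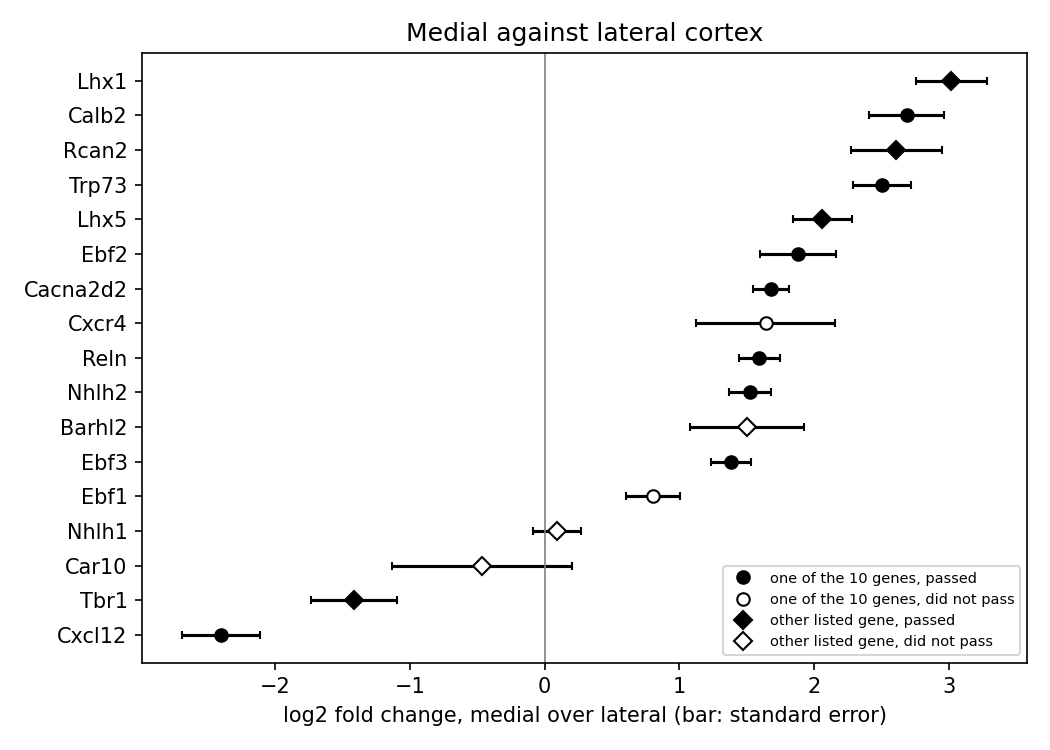
Log2 fold change of medial over lateral cortex with its standard error for the 10 genes (circles) and 7 other Cajal-Retzius cell genes (diamonds), filled where the gene passed in edgeR. Lhx1 (3.02) is highest and Cxcl12 (−2.40) lowest, and Tbr1 (−1.41) is the other filled point below 0.

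The general neuronal list went the other way from most of the Cajal-Retzius genes. Its 7 tested genes summed to between 1090 and 1610 CPM in medial and between 2110 and 2680 CPM in lateral libraries, and 5 were lower in medial cortex. Examples were the synaptic gene Syt1 (log2 fold change −1.57, adjusted p = 0.0316 in edgeR) and Elavl4 (−0.50, adjusted p = 0.0318 in edgeR). Genes of intermediate progenitors summed to between 714 and 930 CPM in medial and between 820 and 952 CPM in lateral libraries, and 0 of 6 passed. Eomes, which some Cajal-Retzius cells also express, had 278, 294 and 344 CPM against 357 and 302 CPM.

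Markers of the known source regions were also compared. In the hem list 10 of 13 genes were higher in medial cortex, among them Bmp7 (log2 fold change 3.54), Rspo1 (7.05) and Wnt5a (4.08). Wnt3a, a defining hem ligand, had 11.9, 3.81 and 2.95 CPM in medial and 0.0304 and 0.0743 CPM in lateral libraries, and Msx2 was at 0 reads in lateral library 2. Medial library 1 was thus highest in hem genes and, among the medial libraries, highest in Trp73, Cacna2d2, Calb2, Ebf1, Ebf3, Nhlh2 and Cxcr4, but lowest in Reln, Ebf2 and Cxcl12. Without it the log2 fold change of Wnt3a moved from 6.86 to 5.99 and kept its call. In lateral libraries 1 and 2 Wnt3a had only 2 and 4 reads and Rspo1 6 in each, so the sizes of their changes are imprecise. Of 4 tested genes of the ventral pallium 0 passed, and the list summed to between 46.8 and 60.1 CPM in medial and between 47.5 and 53.1 CPM in lateral libraries. Of 3 tested septal genes 1, Fgf18, was lower in medial cortex (−1.31, adjusted p = 0.0480 in edgeR), and it missed the threshold in limma-voom too (adjusted p = 0.0524, within a range from 0.0035 to 0.295 over all alternatives). Fgf15, another septal gene, had 29.0 CPM in medial library 1 and at most 0.390 CPM elsewhere, while Fgf8 was at 0 reads in 3 of the 5 libraries. The part of hem tissue in the differences of the 10 genes was not tested.

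Of 14 tested genes that receive and carry the reelin signal, 1 was higher in medial cortex and 0 were lower, where 4.62% and 5.1% of all genes tested were, so the count is near that background. The list median was −0.08. The gene that passed was Nde1, a partner of Pafah1b1 at the dynein motor (log2 fold change 0.52, adjusted p = 0.0405 in edgeR), and it did not pass when genes of low count were kept (adjusted p = 0.0673, within a range from 0.00063 to 0.257 over all alternatives). The receptors Lrp8 and Vldlr had log2 fold changes of −0.01 (adjusted p = 0.975) and −0.79 (adjusted p = 0.186), and the adaptor Dab1 had one of −0.76 (adjusted p = 0.0891), all in edgeR. The value of Lrp8 turned positive with library size alone (0.07) and with upper-quartile scaling (0.02). In Dab1 both lateral libraries (159 and 221 CPM) lay above the medial ones (81.7 to 134 CPM), and the gene passed as lower in DESeq2 (adjusted p = 0.0195, within a range from 0.000403 to 0.45 over all alternatives). Vldlr passed as lower in edgeR without medial library 1 (−1.21, adjusted p = 0.0250, within a range from 1.55e-05 to 0.639).

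A tag in the deposited names, which the labels do not explain, sets medial library 2 beside lateral library 1 and medial library 3 beside lateral library 2. Within these pairs the log2 difference of Reln was 1.42 and 1.94, that of Trp73 2.11 and 2.63, and that of Calb2 2.19 and 2.79. Cxcl12 was lower by nearly the same amount in both (−2.25 and −2.26), and Cxcr4 was higher by 1.20 and 0.77. The other 5 genes were higher in the medial library of both pairs, from 0.58 for Ebf1 to 2.33 for Ebf2. All 10 genes already separated over the 5 libraries, as 53.3% of all genes tested did, so their shared direction in both pairs follows from that. The share of all genes with the same direction in both pairs was not counted. Medial library 1 has no partner.

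The genes most alike to Reln in pattern were found as those with the smallest root mean square difference of log2 CPM over the 5 libraries, after centring each gene, among 11795 named genes. They were the adhesion molecule Ncam2 (0.092), the doublesex-related factor Dmrt3 (0.142), Pdlim1 (0.144), the cystathionine beta-synthase gene Cbs (0.145) and Plekhh2 (0.156). Ncam2, for example, had 24.7, 29.9 and 28.3 CPM in medial and 10.6 and 8.10 CPM in lateral libraries, with medial library 1 again the lowest of its group. For Trp73 they were the guidance ligand Slit2 (0.178), the matrix proteoglycan Optc (0.179), the nicotinic receptor modulator Lynx1 (0.225), Rcan2 (0.228) and the guidance ligand Slit3 (0.233). Slit2 had 129, 126 and 97.2 CPM in medial and 25.2 and 15.8 CPM in lateral libraries.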

How the data were processed

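RNA sequencing libraries of 3 medial and 2 lateral cortex samples were grouped by the labels. The deposited files hold raw read counts for each gene symbol, which the authors did not normalise. The submitters' processing notes name BWA, STAR, HTSeq and the build mm9, without versions or roles, and the gene annotation is not given in the sources used here. Reads that HTSeq gave to no gene (between 23.1% and 28.7% of each file) stayed out of library sizes and tests.

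Counts were filtered with filterByExpr (count of 10, total of 15), scaled with TMM and compared by the quasi-likelihood test of edgeR 4.0.16 (R 4.3.3; edgeR 4 form, group as the term, 3 residual degrees of freedom). P-values were adjusted over all 16229 genes by the Benjamini-Hochberg method, with a threshold of 0.05. SE is the log2 fold change over the root of F. Log2 CPM used a prior count of 2. Precision is limited by the number of libraries, and floors cover counting error only.

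The 10 genes and the 16 marker lists were chosen with earlier results of these data known, so no list was tested as a group. Named genes were all 10 genes, from each list the 3 genes of lowest adjusted p below the threshold (where a list had none, the 2 most abundant), 9 defining markers, and the 5 genes nearest in pattern to Reln and to Trp73 (mean of at least 1 CPM). Some listed genes are not reported here. Other listed genes named in the text were chosen after their values were seen. Exon lengths and overlaps came from GENCODE M21 and promoters from RefSeq, both on GRCm38, while the counts were made on mm9. Permutation tests used SciPy 1.17.1. Alternatives covered scaling, filters, DESeq2 1.42.0, limma-voom (limma 3.58.1), thinning, blocks and leaving out each library.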

Additional observations from a re-analysis of the deposited data

How the results depend on the processing

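Over 15 alternatives for each of the 10 genes, 0 of 150 values reversed, 120 kept their side of the threshold, 26 lost a call and 4 gained one. Every lost call but the Ebf2 block value below came from leaving out a library. Without each library in turn, between 0 and 9 of the 10 genes and between 0 and 2164 of all genes passed. DESeq2 called 3527 genes in all (1737 higher, 1790 lower) against 1577 in edgeR (750 higher, 827 lower), and 9 of the 10 genes, Ebf1 included (adjusted p = 0.00825). Of the other named genes without a call in edgeR, Cxcr7, Dab1, Ebf4, Zfp423, Trp63 and Calb1 passed in DESeq2.

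The replicate numbers of the labels did not pair the samples by any label. With a block by number 1076 genes and 7 of the 10 passed, and Ebf2 did not (adjusted p = 0.0661). Of the other named genes with a call in edgeR, Nde1 (0.0716), Cdh5 (0.0985), Fgf18 (0.0821), Zfp521 (0.12), Emx2 (0.0525), Lhx2 (0.0643) and Plekhh2 (0.0746) lost their calls with it, by adjusted p in edgeR, and Dab1 gained one (0.0354). With a block by the tag in the deposited names 5361 genes and 10 of the 10 passed, Ebf1 and Cxcr4 included (adjusted p = 0.0100 and 2.53e-05), and so did those 6 other genes, Vldlr, Barhl2 and Cacna2d1. Deviations from the group means correlated at 0.03 and −0.38 for pairs by number and at 0.38 for both pairs by tag, across 16229 genes, where the 2 lateral deviations mirror each other by construction.

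Scaling by library size alone turned the split of calls to 843 higher and 744 lower, and upper-quartile scaling to 834 and 738, with 7 of the 10 genes higher and 1 lower in both. Among other genes that did not pass, signs turned as follows. With the block by number the log2 fold change was 0 for Foxc1, −0.12 for Neurog2 and 0.04 for Lrp8, which was 0.07 with library size alone and 0.02 with upper-quartile scaling. With the block by tag it was −0.36 for Col1a1, −0.48 for Col3a1 and 0.18 for Ttr. Col3a1 passed as lower in medial cortex in an alternative that turned its sign (lowest adjusted p = 0.00969 in edgeR). With 1 library left out, values ran from −0.36 to 0.02 for Foxc1, −0.32 to 5.49 for Col1a1, −0.47 to 2.04 for Col3a1, −1.93 to 2.10 for Ttr, −0.05 to 0.39 for Sfrp2, −0.23 to 0.01 for Eomes, −0.12 to 0.21 for Neurog2, −0.15 to 0.38 for Nhlh1 and −0.15 to 0.06 for Lrp8. The cause was not tested. Ebf1, with 141 to 187 reads a library, moved to 0.57 after thinning to the smallest library.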

Other observations

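Relatives and partners of the 10 genes were compared in the same fit, and 2 of 10 tested were higher and 0 lower in medial cortex. Cacna2d3, a relative of Cacna2d2, had 24.6, 22.9 and 17.7 CPM in medial and 7.31 and 8.60 CPM in lateral libraries (log2 fold change 1.45, adjusted p = 0.0296 in edgeR). The zinc-finger factor Zfp521, from a family that binds EBF proteins, had 155, 187 and 194 CPM against 117 and 79.5 CPM (0.86, adjusted p = 0.0466 in edgeR), and lost its call in 6 of 15 alternatives: when genes of low count were kept (adjusted p = 0.0604), with the block by number, and without medial library 2, medial library 3, lateral library 1 or lateral library 2. Its relative Zfp423 (0.77, adjusted p = 0.0551) missed the threshold in edgeR with medial libraries above lateral ones, and passed without medial library 1 (0.93, adjusted p = 0.0102). Ebf4, the remaining EBF gene, lay the other way, at 6.38, 9.65 and 11.2 CPM in medial and 19.5 and 16.1 CPM in lateral libraries (−0.97, adjusted p = 0.0564 in edgeR, and −0.77 with an adjusted p = 0.0335 without medial library 1). Trp63, the other relative of p53, stayed at or below 1.21 CPM in all 5 libraries (2.96, adjusted p = 0.0562 in edgeR, and 2.29 with an adjusted p = 0.0327 without medial library 1), and Trp53 had between 55.6 and 76.6 CPM. Calb1, which encodes calbindin, had between 0.350 and 0.779 CPM in medial and 1.41 and 2.04 CPM in lateral libraries (−1.42, adjusted p = 0.0596 in edgeR). Cacna2d1 had between 104 and 113 CPM against 125 and 127 CPM (−0.22, adjusted p = 0.0979 in edgeR).

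In the striatal list 1 of 5 tested genes was lower in medial cortex, the dopamine receptor gene Drd1a (log2 fold change −2.52, adjusted p = 0.04998 in edgeR, just under the threshold), and it lost that call in 6 of 15 alternatives. Without lateral library 1 its log2 fold change was −2.89, without lateral library 2 −2.04 and without medial library 3 −3.59. Isl1, a striatal factor, stayed at or below 0.175 CPM in all 5 libraries. In the choroid plexus list 1 of 4 tested genes passed as higher in medial cortex, Otx2 (5.24, adjusted p = 0.0380 in edgeR, and 4.29 without medial library 1). It did not pass in limma-voom (adjusted p = 0.0501). In 3 of the 4, Otx2 included, every medial library lay above every lateral one, as in 26.5% of all genes tested, and the list median was 2.42. Ttr, the most abundant transcript of that tissue, ranged from 0.659 to 10.4 CPM without following region. In the list of cortical factors Emx2 (1.32) and Lhx2 (1.07) were higher in medial cortex, with adjusted p-values of 0.0296 and 0.0316 in edgeR, and both lost their calls without medial library 3 and with the block by number.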
